A study of Homo sapiens with 9 samples.

Results

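The set examined here was 10 transcripts that hepatocytes make for export to the blood: the apolipoproteins APOA1, APOA2, APOC3, APOB, APOE and APOC1, and the plasma proteins ALB, AHSG, TTR and APOH. They were found by symbol among the 36225 genes of the deposited table, and all 10 were among the 21492 genes that passed the filter on low counts. The members were chosen by their measured levels in the control libraries, where replicate 1 was low and replicates 2 and 3 high for most of them, so every value of theirs that involves those libraries is a description. Calls of the fit over all genes are counted there without p-values and support nothing about the members.

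Poly(A) RNA was sequenced from RBE, a human cell line long established from a cholangiocarcinoma, which is a tumor of bile duct epithelium. Every group was infected with lentivirus: 3 libraries carried a short hairpin RNA against IDH1 (shIDH1), 3 a short hairpin RNA against JOSD2 (shJOSD2) and 3 a scramble sequence (control). IDH1 encodes cytosolic isocitrate dehydrogenase and JOSD2 a deubiquitinase, and the series title concerns mutant IDH1. The labels do not state separate infections, the number of hairpins per gene or whether the lines are clonal, so each p-value speaks to library-to-library variation that may be purely technical.

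Apolipoproteins coat lipoprotein particles, in which fat and cholesterol travel in blood, and serve as ligands for receptors or as regulators of lipases. Together with albumin, fetuin and transthyretin they are made mainly by hepatocytes, where factors such as HNF4A, FOXA and C/EBP drive their genes. Apolipoproteins A-I and B are also made by enterocytes, and several of these genes are active in fetal liver and in liver tumors. Cholangiocytes, which line the bile ducts, share a progenitor with hepatocytes but normally make little of these proteins.

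Totals lay between 66036276 and 71612713 counts per library, at roughly 4 counts per sequenced fragment, a figure inferred from the values. Each targeted gene was lowest in its own hairpin group, but both were also below control in the other hairpin group, JOSD2 strongly so in shIDH1. IDH1 averaged 12.6 ± 0.446 FPKM (fragments scaled to transcript length and library size) in shIDH1, 34.5 ± 1.56 in shJOSD2 and 44.0 ± 4.44 in control libraries, and JOSD2 averaged 1.68 ± 0.174 FPKM in shIDH1, 0.795 ± 0.101 in shJOSD2 and 6.37 ± 0.260 in control libraries (SD, n = 3 each). The biliary keratins KRT19, KRT18, KRT8 and KRT7 lay between 186 and 599 FPKM in every library. Of 24 hepatocyte metabolic markers matched, 3 reached 1 FPKM in any library (SLCO1B3, CPS1 and BAAT), so the set is named for what its genes encode and the cells are not called hepatocytes. Control replicate 1 stood apart from control replicates 2 and 3 in most of the set, and changes and calls against control are given with and without it.

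Promoter sequences from RefSeq (GRCh38.p14) were matched for 6 of the 10 genes: ALB, APOA2, APOC1, APOE, APOH and AHSG. The 250 bases before the start annotated by RefSeq are shown for 3 genes that differed among the control libraries, ALB, AHSG and APOA2, and for APOH, which did not. They lie at chr4:73404037-73404286 (plus strand), chr3:186612810-186613059 (plus strand), chr1:161223629-161223878 (minus strand) and chr17:66229416-66229665 (minus strand), in the order ALB, AHSG, APOA2 and APOH. Each is written 5′ to 3′ along its gene, and capitals mark matches to short motifs of liver factors on either strand. The ALB and APOH windows lie inside the gene spans of the deposited table given below, which start upstream of the RefSeq starts used here.
ALB: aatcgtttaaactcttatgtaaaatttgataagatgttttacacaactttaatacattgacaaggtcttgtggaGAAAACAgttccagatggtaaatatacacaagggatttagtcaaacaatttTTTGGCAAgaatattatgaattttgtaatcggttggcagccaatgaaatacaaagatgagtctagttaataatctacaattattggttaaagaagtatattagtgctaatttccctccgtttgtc
AHSG: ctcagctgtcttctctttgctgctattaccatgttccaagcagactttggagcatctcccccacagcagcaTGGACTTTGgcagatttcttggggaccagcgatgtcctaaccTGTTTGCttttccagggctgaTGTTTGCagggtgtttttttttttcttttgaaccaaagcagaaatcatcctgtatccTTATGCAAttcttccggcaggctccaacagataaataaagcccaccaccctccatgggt
APOA2: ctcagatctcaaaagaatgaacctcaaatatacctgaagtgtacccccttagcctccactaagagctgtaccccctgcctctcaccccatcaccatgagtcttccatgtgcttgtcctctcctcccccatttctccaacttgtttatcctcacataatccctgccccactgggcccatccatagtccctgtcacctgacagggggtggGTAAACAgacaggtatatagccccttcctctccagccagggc
APOH: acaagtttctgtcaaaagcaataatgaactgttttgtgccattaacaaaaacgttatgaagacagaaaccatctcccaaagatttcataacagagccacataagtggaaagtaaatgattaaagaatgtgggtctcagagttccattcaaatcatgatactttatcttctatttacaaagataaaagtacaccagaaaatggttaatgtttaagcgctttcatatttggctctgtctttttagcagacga

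Both strands were searched. For HNF4 the core CAAAGNNCA was searched. For FOXA factors the core was TGTTTNC, for C/EBP factors the site TTGCNNAA, and TATAAA stood for the box near the start. The matches shown do not overlap each other. ALB held 1 FOXA match at positions -176 to -170 from the start and 1 C/EBP match at -125 to -118. AHSG held 1 HNF4 match at -179 to -171, FOXA matches at -137 to -131 and -116 to -110, and 1 C/EBP match at -59 to -52. APOA2 held 1 FOXA match at -42 to -36. The APOH, APOC1 and APOE windows held none of these letters. Of 35116 RefSeq promoter windows of the same length, 4.44% held the HNF4 core, 15.5% the FOXA core, 9.05% the C/EBP site and 10.7% the TATA box. No motif occurred in all 4 windows shown, and a match describes letters, not binding.

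APOA1 (ENSG00000118137; GRCh38 chromosome 11, 116835751 to 116837614, minus strand), the main protein of high-density lipoprotein, had the highest mean FPKM of the members over the 9 libraries. It stood at 2.51, 3.19 and 3.25 FPKM in shIDH1 replicates 1, 2 and 3, at 3.68, 6.24 and 3.04 FPKM in shJOSD2 replicates, and at 2.91, 40.0 and 45.5 FPKM in control replicates 1, 2 and 3. Control replicates 2 and 3 were high, while control replicate 1 lay inside the range of the 6 hairpin libraries, so the groups overlapped. Those levels rest on 200 to 480 counts in hairpin libraries and on 233, 3144 and 3539 counts in control libraries.

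APOA2 (ENSG00000158874; chromosome 1, 161222292 to 161223631, minus strand), the second protein of high-density lipoprotein, showed the same pattern at lower level. Its values were 0, 0.171 and 0 FPKM in shIDH1, 0.277, 0.0938 and 0.141 FPKM in shJOSD2 and 0, 2.04 and 2.51 FPKM in control libraries. APOC3 (ENSG00000110245; chromosome 11, 116829706 to 116833072, plus strand), an inhibitor of lipoprotein lipase, stood at 0, 0.177 and 0.0935 FPKM in shIDH1, 0, 0.277 and 0.120 FPKM in shJOSD2 and 0, 0.863 and 1.39 FPKM in control libraries. Both were listed at 0 in control replicate 1 and in some hairpin libraries, where 3 fragments, or 12 counts, is the limit that a count of 0 allows. Intervals and limits here cover counting error only. Hairpin libraries held at most 20 counts of APOA2 and 17 of APOC3, so their order within those groups is not resolved.

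APOB (ENSG00000084674; chromosome 2, 21001429 to 21044073, minus strand), the structural protein of very-low-density lipoprotein and chylomicrons, had the lowest mean FPKM of the members over the 9 libraries. It stood at 0.0291, 0.0321 and 0.0288 FPKM in shIDH1, at 0.0276, 0.0680 and 0.0399 FPKM in shJOSD2 and at 0.0438, 0.491 and 0.526 FPKM in control libraries. All 3 shIDH1 libraries lay below every control library, and shJOSD2 replicate 2 lay above control replicate 1.

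APOE (ENSG00000130203; chromosome 19, 44905791 to 44909393, plus strand), a ligand for lipoprotein receptors, stood at 1.18, 1.38 and 1.18 FPKM in shIDH1, at 1.29, 1.79 and 1.07 FPKM in shJOSD2 and at 1.09, 12.2 and 13.7 FPKM in control libraries. Its neighbour APOC1 (ENSG00000130208; chromosome 19, 44914247 to 44919346, plus strand), which inhibits cholesteryl ester transfer protein, behaved otherwise. APOC1 stood at 0.217, 0.526 and 0.601 FPKM in shIDH1, at 0.529, 0.583 and 0.897 FPKM in shJOSD2 and at 1.12, 1.67 and 1.93 FPKM in control libraries. Every control library, replicate 1 included, was higher in APOC1 than each of the 6 hairpin libraries. For APOE, control replicate 1 lay within the hairpin range.

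ALB (ENSG00000163631; chromosome 4, 73397114 to 73421410, plus strand), the main carrier protein of plasma, stood at 0.157, 0.162 and 0.131 FPKM in shIDH1, at 0.122, 0.269 and 0.133 FPKM in shJOSD2 and at 0.104, 1.23 and 1.43 FPKM in control libraries. AHSG (ENSG00000145192; chromosome 3, 186613060 to 186621318, plus strand), which encodes fetuin-A, an inhibitor of calcification, stood at 0.548, 0.568 and 0.934 FPKM in shIDH1, at 0.674, 1.47 and 0.522 FPKM in shJOSD2 and at 0.342, 5.10 and 5.91 FPKM in control libraries. In both genes control replicate 1 was the lowest of the 9 libraries and control replicates 2 and 3 the highest.

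TTR (ENSG00000118271; chromosome 18, 31557009 to 31598833, plus strand), the carrier of thyroxine and of retinol-binding protein, stood at 0.183, 0.397 and 0.448 FPKM in shIDH1, at 0.162, 0.114 and 0.104 FPKM in shJOSD2 and at 0.0376, 1.35 and 1.32 FPKM in control libraries. Control replicate 1 was again the lowest library, with 7 counts, which is under 3 fragments. All shIDH1 libraries lay above all shJOSD2 libraries.

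APOH (ENSG00000091583; chromosome 17, 66212033 to 66256525, minus strand), or beta-2-glycoprotein I, which binds anionic phospholipids, was the exception among the abundant members. It stood at 6.11, 4.33 and 3.42 FPKM in shIDH1, at 3.32, 3.49 and 3.59 FPKM in shJOSD2 and at 4.90, 6.10 and 5.29 FPKM in control libraries. Control replicate 1 did not stand apart, and all shJOSD2 libraries lay below all control libraries. In hairpin libraries APOH and APOA1 were the most abundant members per length, whereas in control replicates 2 and 3 APOA1 was followed by APOE.

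**Figure D1:**
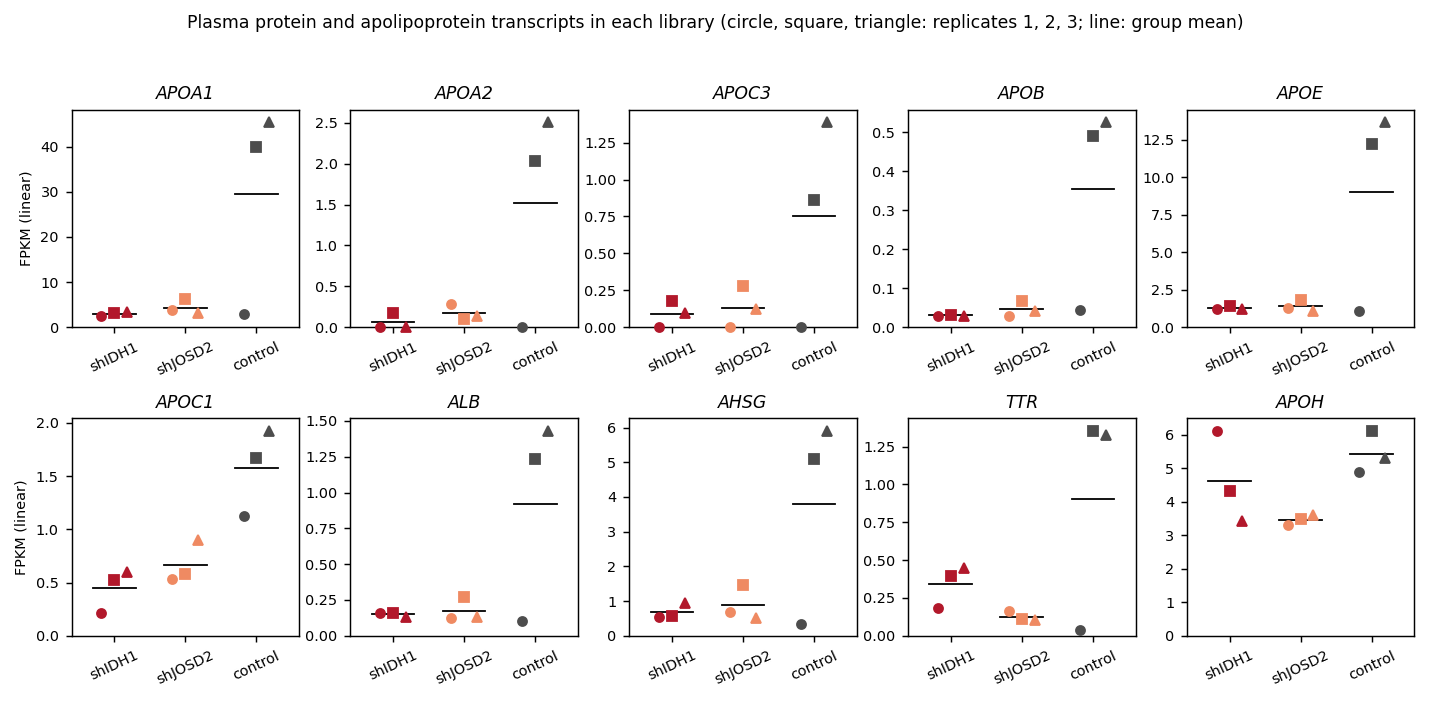
Level of each of the 10 transcripts, in FPKM on a linear axis from 0, by group (shIDH1, shJOSD2, control). Circle, square and triangle are replicates 1, 2 and 3, and lines are group means. In 8 panels the control square and triangle sit far above the control circle, which lies among or below the hairpin libraries, and APOC1 and APOH do not share that pattern.

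The split among control libraries was then measured, since those libraries share a label. A gene was counted as split when control replicates 2 and 3 each stood at least 4-fold above replicate 1 on FPKM + 0.1. By that count 8 of the 10 members were split, against 68 of 21492 tested genes (0.316%), and 13 genes (0.0605%) were split the other way. This pattern was in view when the members were named, so nothing is read from the share. The member nearest the threshold from above was APOB, at 4.11 and 4.35, and the nearest below it was APOC1, well short at 1.44 and 1.66.

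In FPKM without an added constant, control replicates 2 and 3 exceeded replicate 1 by 13.8-fold and 15.7-fold for APOA1, with 95% exact counting intervals of 10.6 to 18.4 and 12.0 to 20.9. The ratios were 11.2 and 12.6 for APOE, 11.2 and 12.0 for APOB, 11.9 and 13.8 for ALB, and 14.9 and 17.3 for AHSG. These 5 genes span a wide range of abundance, yet their ratios lay between 11.2 and 17.3. For TTR the ratios were 36.0 and 35.2, with intervals of 8.30 to 267 and 8.18 to 263, since replicate 1 held few fragments. APOA2 was at least 12.0-fold and 14.6-fold higher in replicates 2 and 3 and APOC3 at least 4.61-fold and 7.27-fold higher, against a limit of 12 counts in replicate 1. The ratios of APOC1, 1.48 and 1.71, and of APOH, 1.25 and 1.08, were far smaller.

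As a percentage of the mean of control replicates 2 and 3, the median over the 8 split members was 7.50, 10.5 and 8.71% in shIDH1 libraries, 9.55, 14.2 and 8.05% in shJOSD2 libraries and 6.51% in control replicate 1. Control replicate 1 thus stood near the hairpin libraries, and its members ranged between 0 and 8.62%. It lay within the range of the 6 hairpin libraries for 6 of the 10 members, below it for 3 (ALB, AHSG and TTR) and above it for 1 (APOC1). Control replicates 2 and 3 both lay above the hairpin range for 9 members, all except APOH.

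**Figure D2:**
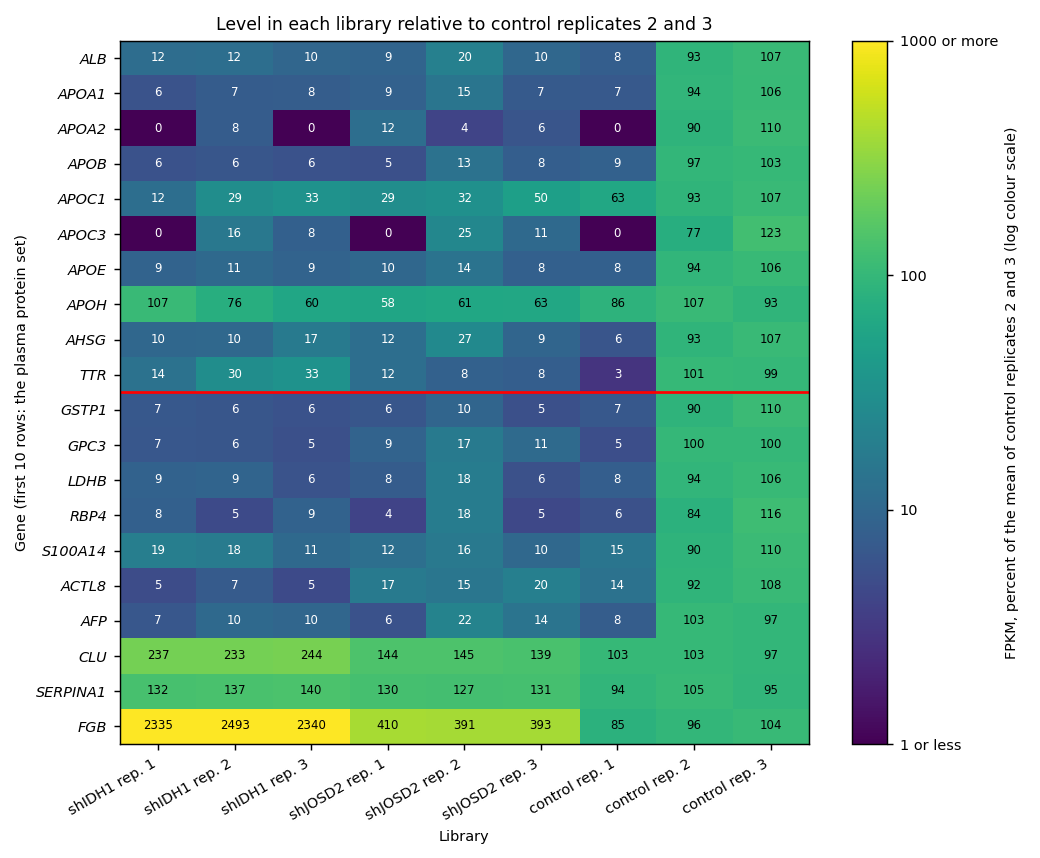
Level in each library as a percentage of the mean of control replicates 2 and 3 (log colour scale), for the 10 members above the red line and for 10 other genes below it. The 8 split members and the split genes GSTP1, GPC3, LDHB, RBP4, S100A14, ACTL8 and AFP are low in the hairpin libraries and in control replicate 1. ABCF1, FBLN1, YJU2 and DKK1, unsplit genes among the 10 most correlated with APOA1, are not drawn. CLU, SERPINA1 and FGB are not split: they lie between 85.2 and 105% in the 3 control libraries and higher in every hairpin library.

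Within the hairpin libraries the split members also varied. In shJOSD2 replicate 2 the levels of ALB, APOA1, APOB, APOC3, APOE and AHSG were the highest of the 6 hairpin libraries, 6 of the 10 members. The ratio of the highest to the lowest hairpin library was 2.48 for APOA1, 1.68 for APOE, 2.21 for ALB, 2.46 for APOB and 2.82 for AHSG. It was largest for TTR among the split members detected in all 6 hairpin libraries, at 4.29, with shIDH1 replicate 3 the highest. In bulk RNA, fewer cells that make a transcript and less transcript per cell cannot be told apart.

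The proportions among the members were compared per length by taking APOA1 as 100%. APOE stood at 47.1, 43.4 and 36.3% of APOA1 in shIDH1, at 35.0, 28.8 and 35.1% in shJOSD2 and at 37.5, 30.4 and 30.1% in control libraries. APOB stood between 0.751 and 1.51% of APOA1 and ALB between 3.08 and 6.25% in all 9 libraries. These 3 ratios moved within about 2-fold while APOA1 itself differed 18.1-fold between its lowest and highest library. All 3 genes are split members, chosen with the control split in view, so nothing is read from this steadiness. AHSG moved further, between 11.7 and 28.7% of APOA1. The unsplit members moved widely, APOC1 between 4.17 and 38.6% and APOH between 11.6 and 243%. APOA2 and APOC3 stood at 0% in some libraries and reached 7.52% and 5.56% in others. TTR did not keep a fixed ratio, at 7.28, 12.5 and 13.8% of APOA1 in shIDH1, 4.42, 1.82 and 3.44% in shJOSD2 and 1.29, 3.38 and 2.90% in control libraries.

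Across the 9 libraries the Pearson correlation with APOA1, on log2(FPKM + 0.1), was 0.993 for APOE, 0.989 for ALB and for APOB, 0.973 for AHSG, 0.930 for APOA2, 0.919 for APOC3, 0.829 for TTR, 0.770 for APOC1 and 0.467 for APOH. These are descriptions over 9 libraries that share the high pair of controls. Among 12378 other tested genes with a mean of at least 1 FPKM, the 10 most like APOA1 were GSTP1, GPC3, LDHB, RBP4, S100A14, ABCF1, ACTL8, FBLN1, YJU2 and DKK1, at 0.921 to 0.989. Of these 10 genes, 6 were split in the controls as the members were. Ranking by likeness to APOA1, itself split, favours such genes, so nothing is read from that count. The correlation does not weigh the size of a difference. ABCF1, for one, stood only 1.23-fold and 1.24-fold above control replicate 1 in replicates 2 and 3. GSTP1, a glutathione transferase, stood at 0.497, 0.466 and 0.422 FPKM in shIDH1, at 0.471, 0.710 and 0.398 FPKM in shJOSD2 and at 0.495, 6.69 and 8.12 FPKM in control libraries. It too was high in control replicates 2 and 3 only.

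Neighbouring genes were examined because the members lie in several clusters. APOA1 and APOC3 lie 2679 bases apart and were both split. APOE was split, whereas APOC1 in the same cluster was not, and TOMM40 on its other side stood 1.25-fold and 1.10-fold above control replicate 1 in replicates 2 and 3. Of 17 distinct nearest tested neighbours that are not members, 1 was split: AFP, alpha-fetoprotein, 9728 bases from ALB. AFP stood at 0.159, 0.253 and 0.233 FPKM in shIDH1, at 0.138, 0.536 and 0.348 FPKM in shJOSD2 and at 0.187, 2.49 and 2.33 FPKM in control libraries.

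The comparison of each hairpin with control asks what changes under the hairpin against IDH1 or JOSD2, although JOSD2 was low in both hairpin groups. Both comparisons share the 3 control libraries. In shIDH1 cells 7 of the 10 members were called lower and 0 higher, by edgeR's quasi-likelihood fit at a Benjamini-Hochberg adjusted p under 0.05, where 50.1% of all tested genes were called, 24.5% higher and 25.6% lower. In shJOSD2 cells 8 were called lower and 0 higher by the same fit, where 38.3% of tested genes were called, 18.2% higher and 20.1% lower. At an unadjusted p under 0.05, and by DESeq2, 0 members were higher in either comparison. Nothing is read from these counts, since the control values were in view when the members were named. APOC3, APOH and TTR were not called in shIDH1 cells, and APOA2 and APOC3 were not called in shJOSD2 cells. In shJOSD2 cells 5 members were called without shJOSD2 replicate 1, 5 without shJOSD2 replicate 3 and 4 without control replicate 3. Those fits called 6968 of 22343, 7010 of 22380 and 7289 of 22492 tested genes.

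The log2 difference from control was -3.31 ± 0.71 in shIDH1 and -2.93 ± 0.69 in shJOSD2 cells for APOA1 (SE, n = 3 per group). For APOE it was -2.85 ± 0.64 in both, and for APOB -3.54 ± 0.71 in shIDH1 and -3.12 ± 0.69 in shJOSD2 cells. ALB gave -2.56 ± 0.68 in shIDH1 and -2.50 ± 0.68 in shJOSD2 cells, and AHSG -2.46 ± 0.74 in shIDH1 and -2.24 ± 0.73 in shJOSD2 cells. APOC1, whose control libraries lay closer together, gave -1.73 ± 0.40 in shIDH1 and -1.35 ± 0.39 in shJOSD2 cells. TTR gave -1.40 ± 0.79 in shIDH1 and -2.92 ± 0.86 in shJOSD2 cells, and APOH -0.24 ± 0.19 in shIDH1 and -0.80 ± 0.19 in shJOSD2 cells. The median over the members was -2.71 in shIDH1 and -2.72 in shJOSD2 cells, against 0.01 and 0.03 over all tested genes.

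These values turned on which control libraries were used. Without control replicate 1, APOA1 differed from control by -3.84 ± 0.25 in shIDH1 and -3.46 ± 0.24 in shJOSD2 cells, and 9 members were called lower in each comparison. In that fit 47.3% of tested genes were called and 23.7% were called lower in shIDH1 cells, and 36.5% were called and 18.9% were called lower in shJOSD2 cells. With control replicate 1 as the lone control, its spread taken from the other groups, APOA1 differed by 0.08 ± 0.37 in shIDH1 and 0.45 ± 0.37 in shJOSD2 cells. Against that library edgeR called 0 members lower in shIDH1 cells, where 18% of tested genes were, and 0 lower in shJOSD2 cells, where 12.5% were. At an unadjusted p under 0.05 the counts of lower members were 0 in shIDH1 and 1 in shJOSD2 cells (APOH). TTR was called higher in shIDH1 cells, at 3.00 ± 0.84, where 34.8% of tested genes were called and 16.9% were called higher, and 0 members were called in shJOSD2 cells, where 22.9% of tested genes were called and 10.4% were called higher. APOA2 and APOC3 are left out there, as that library is at 0. APOC1 stayed below each choice of control, at -1.20 ± 0.55 in shIDH1 and -0.82 ± 0.55 in shJOSD2 cells against replicate 1 alone, values that were not called.

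By ranges, 2 of 10 members had FPKM values in shIDH1 libraries wholly below control (APOB and APOC1), where 56.9% of tested genes had ranges apart and 28.3% lay wholly below control. In shJOSD2 libraries 2 did (APOC1 and APOH), where 51.7% had ranges apart and 17.4% lay wholly below.

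**Figure D3:**
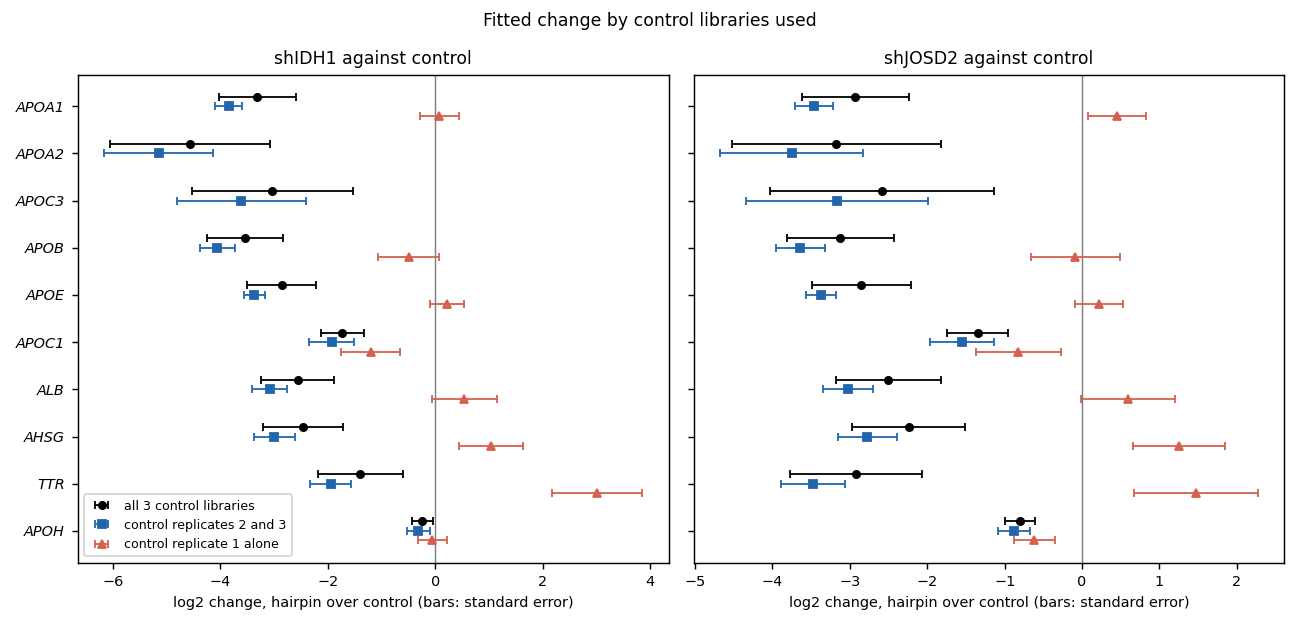
Log2 change of each member in shIDH1 (left) and shJOSD2 cells (right) against control, with bars of 1 standard error, fitted with all 3 control libraries, with control replicates 2 and 3, and with control replicate 1 alone. For APOA1, APOE, ALB, AHSG and TTR the value against replicate 1 alone lies above 0, while the other 2 fits lie below it. APOA2 and APOC3 have no value against replicate 1, which is at 0.

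The comparison of shIDH1 with shJOSD2 does not use the level of the control libraries, and was tested. The filter and the spread of the fit over 9 libraries did include them. APOC3, at 0 to 17 counts in hairpin libraries, passed that filter only with the control libraries. On hairpin libraries alone 9 members passed. Of the 10 members, 1 was called by edgeR's quasi-likelihood test at an adjusted p under 0.05, where 44.8% of tested genes were called and 20.8% were called higher. APOH averaged 4.62 ± 1.37 FPKM in shIDH1 and 3.46 ± 0.138 FPKM in shJOSD2 libraries (SD, n = 3 each), and was higher by 0.56 ± 0.19 on the log2 scale (SE; adjusted p = 0.0327, edgeR). The FPKM ranges overlapped, and an exact two-sided permutation test gave p = 0.3. Without shIDH1 replicate 1, the highest library, the difference was 0.32 and was not called (adjusted p = 0.168, edgeR). It was likewise not called without shIDH1 replicate 2 or without any 1 of the shJOSD2 libraries. With library sizes and no TMM factors APOH was not called either (0.41, adjusted p = 0.109, edgeR).

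TTR averaged 0.343 ± 0.141 FPKM in shIDH1 and 0.127 ± 0.0312 FPKM in shJOSD2 libraries (SD, n = 3 each), a ratio of 2.70 with ranges apart. It was the only member of the 10 with ranges apart, as 58.4% of tested genes were and 20.7% in that direction, and the exact permutation p was 0.1, the smallest that 3 against 3 libraries allow. In the fit over all 9 libraries the log2 difference of 1.53 ± 0.84 was not called (adjusted p = 0.170, edgeR). In a fit of the 6 hairpin libraries alone, which was added after seeing the data and leaves the split controls out of the spread, TTR differed by 1.57 ± 0.48 (adjusted p = 0.0198, edgeR) and APOH by 0.60 ± 0.19 (adjusted p = 0.0243, edgeR). In that fit 49.9% of tested genes were called and 25.1% were called higher. TTR rested on 29 to 75 counts in shIDH1 and 16 to 27 counts in shJOSD2 libraries.

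The other members were not called between the hairpins in either fit. In the fit of hairpin libraries alone the log2 difference was -0.34 ± 0.26 for APOA1, 0.04 ± 0.22 for APOE, -0.38 ± 0.44 for APOB, -0.02 ± 0.42 for ALB and -0.19 ± 0.39 for AHSG. It was -0.34 ± 0.44 for APOC1 and -1.34 ± 1.27 for APOA2, and APOC3 was too low to enter that fit. The errors are wide for the low members, and a miss of the threshold does not show equal levels.

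Other genes of plasma proteins and lipoprotein handling were counted from lists chosen with earlier results of these data known. Calls in these and later lists stand beside shares of all tested genes called against control. Those shares were 50.1% in shIDH1 and 38.3% in shJOSD2 cells, and 47.3% and 36.5% without control replicate 1. Of 27 other plasma protein genes matched, 2 were split in the controls: RBP4, which carries retinol with transthyretin, and F2, prothrombin. Of 21 tested in that list, edgeR called 9 higher and 2 lower in shIDH1 than in control cells, and 9 higher and 6 lower in shJOSD2 than in control cells, with median log2 changes of 0.47 in shIDH1 and -0.02 in shJOSD2 cells. Without control replicate 1 the calls among 24 tested were 7 higher and 3 lower in shIDH1, and 6 higher and 7 lower in shJOSD2 cells, and against that library alone, among 23 tested, 8 higher and 0 lower in shIDH1, and 7 higher and 1 lower in shJOSD2 cells. FGB, a fibrinogen chain, stood at 41.9, 44.7 and 42.0 FPKM in shIDH1, at 7.35, 7.01 and 7.05 FPKM in shJOSD2 and at 1.53, 1.72 and 1.87 FPKM in control libraries. Its control replicate 1 did not stand apart, and FGB was higher by 4.65 ± 0.09 in shIDH1 and 1.91 ± 0.08 in shJOSD2 cells (SE; adjusted p = 3.12e-11 and 1.31e-08, edgeR). SERPINA1, alpha-1-antitrypsin, was higher by 0.47 ± 0.07 in shIDH1 and 0.25 ± 0.07 in shJOSD2 cells (adjusted p = 8.17e-05 and 0.0123, edgeR). Without control replicate 1, FGB was higher by 4.57 in shIDH1 and 1.83 in shJOSD2 cells, and SERPINA1 by 0.44 in shIDH1 and 0.21 in shJOSD2 cells, all still called. Against the 3 control libraries, FGB and SERPINA1 thus differed in the opposite direction from the called members.

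Of 13 other apolipoprotein genes matched, 0 were split. APOA4 held 0, 24 and 38 counts (0, 0.224 and 0.364 FPKM) in control replicates 1, 2 and 3. It missed the 4-fold rule on FPKM + 0.1, whereas CLU held 17396, 17256 and 15957 counts. Of 9 tested, 6 were called higher and 1 lower in shIDH1, and 2 higher and 2 lower in shJOSD2, each against control. Without control replicate 1 these counts were 5 and 1 in shIDH1 and 2 and 2 in shJOSD2 cells, among 10 tested. CLU, clusterin, was the most abundant of them and rose in both, by 1.24 ± 0.06 in shIDH1 and 0.35 ± 0.06 in shJOSD2 cells (adjusted p = 5.93e-09 and 0.000387, edgeR), and by 1.24 in shIDH1 and 0.35 in shJOSD2 cells without control replicate 1. Among 18 genes of lipoprotein assembly and remodelling 1 was split, PLTP, the phospholipid transfer protein, and among 12 receptors 1 was, LRP2 or megalin.

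Of 26 hepatocyte transcription factors 0 were split. HNF4A, singled out after its values were seen, lay between 4.26 and 6.72 FPKM in all 9 libraries. CEBPB, a C/EBP factor, rose by 1.27 ± 0.27 in shIDH1 cells (adjusted p = 0.00178, edgeR), with 0.12 ± 0.27 in shJOSD2 cells. Without control replicate 1 its change was 1.26 in shIDH1 and 0.11 in shJOSD2 cells. Over the 24 tested factors, 10 were higher and 7 lower in shIDH1, and 5 higher and 3 lower in shJOSD2, each against control. The counts without control replicate 1 were equal to these.

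Markers of other cell types were set beside the split. Of 12 oncofetal liver markers 4 were split (AFP, GPC3, H19 and IGF2BP1), and of 13 enterocyte markers 2 (CDX1 and RBP2). Of 24 hepatocyte metabolic and 17 biliary markers 0 were. The added 0.1 FPKM keeps genes near 0 FPKM from reaching 4-fold, so a count of 0 split leaves low markers undecided. In any library 3 of the 24 hepatocyte metabolic markers and 14 of the 17 biliary markers reached 1 FPKM. Among the unsplit, FABP1 held 0, 39 and 41 counts in control replicates 1, 2 and 3. CFTR held 18, 80 and 118 counts there, CDX2 0, 67 and 94, and SALL4 12, 104 and 112. ASGR2 held 19, 135 and 81 counts and IGF2 1397, 3892 and 4865. These unsplit markers were thus also higher in replicates 2 and 3. Others went the other way, BAAT at 110, 55 and 64 counts and UGT2B7 at 34, 15 and 12. In each of these lists 0 genes were split the other way. The summed level of the oncofetal markers was 60.4 to 65.0 FPKM in shIDH1, 62.2 to 66.9 FPKM in shJOSD2 and 86.4, 94.5 and 114 FPKM in control replicates 1, 2 and 3. The sum of the hepatocyte metabolic markers was 12.2 to 13.5 FPKM in shIDH1, 16.2 to 16.7 FPKM in shJOSD2 and 14.7, 14.8 and 14.1 FPKM in control libraries. Enterocyte markers summed to 54.4 to 59.0 FPKM in shIDH1, 19.9 to 21.0 FPKM in shJOSD2 and 13.7, 15.1 and 16.4 FPKM in control libraries. These sums rested mostly on a few unsplit genes. In control replicates 1, 2 and 3 PEG10 stood at 55.6, 50.7 and 64.6 FPKM and EPCAM at 21.1, 20.3 and 22.3 FPKM, both oncofetal. SLCO1B3, a hepatocyte metabolic marker, stood at 12.0, 11.5 and 10.8 FPKM there. The enterocyte sum in shIDH1 was mainly DPP4 and CDH17. The sums therefore do not show how the split markers or a whole list moved. Of the hepatocyte metabolic markers, ADH1B was at 0 in control replicates 2 and 3. Of the kidney, leukocyte, endothelial, fibroblast and erythroid markers matched, 0 were split. Among the kidney markers, GAL held 0, 27 and 36 counts in control replicates 1, 2 and 3, and NEFM 57, 44 and 19. HBA2 stood at 12.6 FPKM in control replicate 2 and 11.5 FPKM in shJOSD2 replicate 3, against 0.471 to 1.97 FPKM elsewhere. The part of any admixed cells in the split was not tested.

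**Figure D4:**
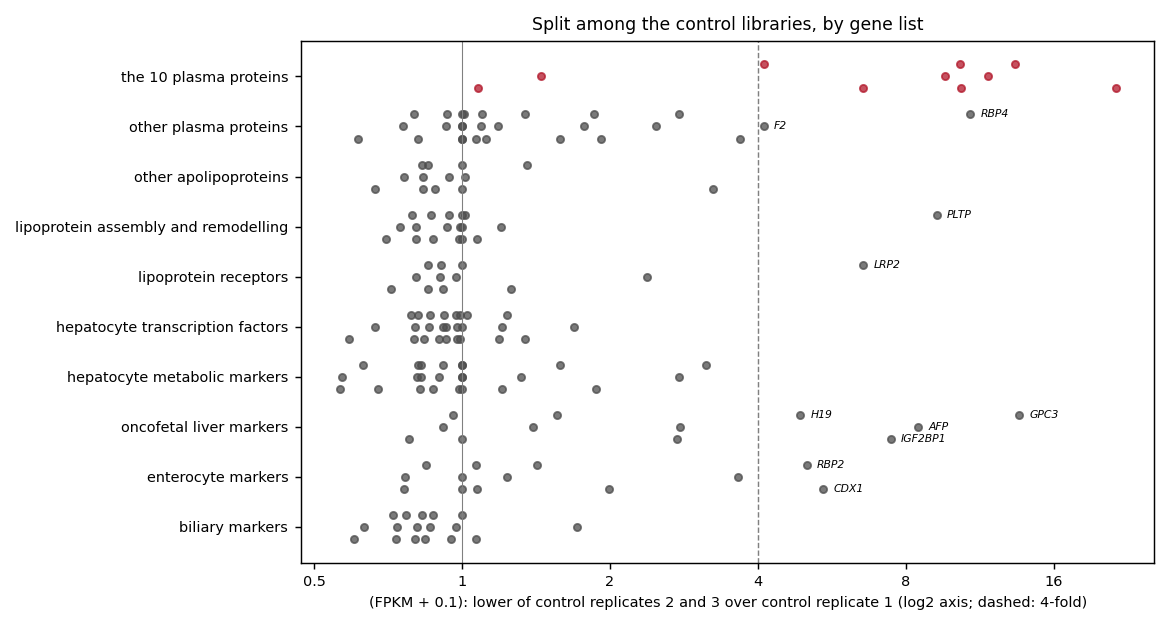
Ratio of the lower of control replicates 2 and 3 to control replicate 1 on FPKM + 0.1 (log2 axis), 1 point per gene, for the 10 members in red and 9 lists of other genes in grey; the vertical position within a row has no meaning. The dashed line marks 4-fold, which 8 members and 10 named genes of the other lists pass, while most other genes lie near 1. The added 0.1 holds genes near 0 FPKM close to 1.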

How the data were processed

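The authors deposited 1 table with a count and an FPKM value per gene and library. The column headers label the values as counts or FPKM and do not say whether the counts were normalized. The deposited FPKM values correct for transcript length and library size, as that unit implies in the headers. The submitters' processing notes name StringTie 1.3.4d, UMI-tools, HISAT2 2.0.4 and cutadapt 1.9, and the build GRCh38. What each tool did, which annotation was used and whether counting used strand is not given in the sources used here. Low counts gathered at 4, 8, 12 and 16, so that 1 fragment seems to carry about 4 counts, an inference from the values. Counts of 1 and 2 were also frequent, with 9771 and 8761 values against 10737 for a count of 4, so the figure is approximate. On that inference counting error is larger than the counts imply, and the intervals and limits given here rest on it.

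The members, the gene lists and the tests were chosen with earlier results of these data known. Counts of all 9 libraries entered 1 edgeR 4.0.16 fit in R 4.3.3 (filterByExpr, TMM, a mean per group, quasi-likelihood F-tests, Benjamini-Hochberg adjustment over 21492 genes at 0.05). Each standard error was obtained by dividing the size of the log2 change by the root of its F statistic. Splits used FPKM + 0.1 and a 4-fold threshold. A count of 0 was set to a limit of 12 counts, per library. Counting intervals are exact binomial intervals at 95% on counts divided by 4.

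Named genes were the 10 members, IDH1 and JOSD2, the 10 genes most correlated with APOA1, the 4 genes of highest mean FPKM in each list and every split list gene. Of these, only genes with values that bear on the members are described, and a few that this rule held are not reported here. Lists held 214 genes, of which 200 matched the table by symbol. Alternatives were DESeq2 1.42.0, limma 3.58.1 on log2(FPKM + 1) and log2(FPKM + 0.1), other scalings and filters, counts divided by 4, a replicate block, each library left out and control replicate 1 as the lone control. The fit of hairpin libraries alone was added after seeing the data. The edgeR step was tested on simulated data. Figures were drawn with matplotlib 3.10.9.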

Additional observations from a re-analysis of the deposited data

How the results depend on the processing

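The calls of members against control depended on the test and on control replicate 1. In shIDH1 cells 7 members were called in the fit as reported, 3 by limma on log2(FPKM + 1), 2 by limma on log2(FPKM + 0.1), 1 against control replicate 1 alone (the lone control), and 5 to 9 when a library was left out. In shJOSD2 cells 8 were called as reported, 2 by limma with either constant, 0 with the lone control, and 4 to 9 when a library was left out. Between the hairpins 1 member was called as reported and 0 without TMM factors, without the filter, by limma with either constant and with the replicate block, 2 with the lone control and 2 in the fit of hairpin libraries alone (APOH and TTR), and 0 to 2 when a library was left out. With FPKM + 1, 3 members were split in the controls in place of 8. The cause of these shifts was not tested. Of 21492 tested genes, limma called 10620 with FPKM + 1 and 10686 with FPKM + 0.1 in shIDH1 cells. It called 8661 and 8356 in shJOSD2 cells, and 10384 and 10075 between the hairpins. The fits lacking 1 library tested 22343 to 22496 genes. They called 9724 to 10635 in shIDH1 cells, 6939 to 8248 in shJOSD2 cells and 8430 to 9927 between the hairpins. Between the hairpins 9969 were called without TMM factors, 9296 with the block and 8767 without the filter (36225 tested).

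Against the lone control the log2 change turned positive in shIDH1 and shJOSD2 cells for ALB (0.54 and 0.59), APOA1 (0.076 and 0.45), APOE (0.23 and 0.22), AHSG (1.03 and 1.25) and TTR (3.00 and 1.47). Between the hairpins the sign of APOE turned, from a value near 0, to 0.0136 with DESeq2, 0.0275 with RLE factors, 0.0064 without the filter, 0.003 with the block, 0.0049 with the lone control and 0.0381 with hairpin libraries alone. ALB turned to 0.0582 with the block. When a library was left out, values ranged between -0.16 and 0.23 for APOE, -0.23 and 0.36 for ALB, -0.67 and 0.0062 for APOB, -1.37 and 0.60 for APOC3 and -0.53 and 0.34 for AHSG. CEBPB in shJOSD2 cells against control ranged between -0.19 and 0.42. Of the members' values over all alternatives, 440 kept direction and side of the threshold, 63 lost the call, 8 gained it and 28 changed sign. Of those of FGB, SERPINA1, CLU and CEBPB against control, 143 kept both and 1 changed sign.

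The replicate numbers did not pair the libraries (correlations of -0.02 to 0.04), and with the replicate block 8 members were called in shIDH1 and 6 in shJOSD2 cells. That fit called 10416 of 21492 tested genes in shIDH1 and 7823 in shJOSD2 cells. Without TMM factors the median of all genes was 0.18 in shJOSD2 against control and -0.21 between the hairpins, where APOH differed by 0.41 (adjusted p = 0.109, edgeR); the split of all calls was then 5638 higher and 2934 lower in shJOSD2, against 3907 and 4330 as reported, and 3316 higher and 6653 lower between the hairpins, against 4479 and 5156. Few fragments limit APOA2, APOC3 and TTR.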
